A study of Mus musculus with 24 samples.

Results

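The glutathione S-transferases described here are the alpha-class enzymes Gsta3 and Gsta4, the mu-class enzymes Gstm1 and Gstm2, Gstt1 (theta class), Gstp1 (pi), Gsto1 (omega), Gstk1 (kappa) and the membrane-bound enzymes Mgst1 and Mgst3. These 10 mouse genes were taken by name, and every probe annotated with one of their symbols was used, which gave 18 of the 25697 probes on the array. Of these, 17 passed the detection filter, a detection p under 0.05 on at least 3 arrays, as did 14160 probes in all. For each gene the brightest kept probe was read, so that the 10 members were read among 9558 genes tested.

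Glutathione transferases join the tripeptide glutathione to reactive, electron-seeking molecules, and several also reduce lipid peroxides or carry out isomerisations. In fat cells they are known for clearing the aldehydes that form when stored lipid is oxidised, of which 4-hydroxynonenal is the best studied. The cytosolic classes, the kappa enzyme of mitochondria and peroxisomes, and the membrane-bound enzymes of the MAPEG family are unrelated or distantly related in sequence and share the glutathione chemistry.

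Total RNA was measured in 3T3-L1 cells, a mouse embryo fibroblast line labelled NIH 3T3 L1 that can be turned into fat cells in culture, on Illumina beadchips on days 0, 2, 4, 6, 8, 10, 14 and 18. There were 3 arrays a day and 24 arrays in all. The stage labels call the cells undifferentiated on day 0, differentiating on days 2 and 4, and maturating from day 6 to day 18. The treatment label of every day names a differentiation medium with IBMX (a phosphodiesterase inhibitor), insulin and dexamethasone (a synthetic glucocorticoid), and from day 6 on it adds an insulin-containing maturation medium. Whether the day 0 cells had received any of these agents, and whether the 3 replicates were separate cultures, was not stated in the labels, so the p-values measure the spread between these samples, which may be technical. The course was carried by a single cell line, and no other line or animal enters it.

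Between 11695 and 12531 probes were detected per array (45.5% to 48.8%), replicate arrays correlated with r between 0.982 and 0.996, and the number of arrays limits the precision. Values below are log2 intensities after background correction and quantile normalization, on which the dimmest detected probes lay between 4.75 and 4.90. The label gives the cell type as adipocytes on all days, yet 8 of 12 adipocyte markers, Adipoq among them, were not detected on any day 0 array, and 11 of 12 were detected on every day 18 array. All 6 endothelial markers with a probe were not detected on any array. Nor were the macrophage markers Adgre1, Ptprc and Itgam, the hepatocyte markers Alb, Ttr, Serpina1a, Fgb and Tat, and the muscle markers Myod1, Ckm and Actn2. Of 5 macrophage markers with a probe, 2 passed the detection filter (Cd14 and Lyz2). Of 7 hepatocyte markers, 2 passed it, Cyp2e1 among them. Of 7 muscle markers, 4 passed the detection filter (Des, Acta1, Myog and Tnnt3), and their summed linear intensity went from 119.2 to 126.6 on day 0 to 411.4 to 489.3 on day 10 and 355.9 to 400.9 on day 18. Des (2.79 ± 0.10) and Acta1 (at least 1.86-fold) were higher and Tnnt3 lower on day 18 than on day 0, and their part in the members' courses was not tested. One array stood apart for several members: on day 4, replicate 2 read 11.09 for Gstm2 against 10.01 and 10.02 in the other replicates, 9.38 for Gstm1 against 8.63 and 8.66, and 5.83 for Gstt1 against 4.60 and 4.46. Members' steps into and out of day 4 are therefore given with and without it.

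The members lie on 6 chromosomes in the RefSeq annotation of build GRCm38.p6, a build used here for names, positions and the promoter sequences below. Gstm1 (chr3:108012250-108017973) and Gstm2 (chr3:107981702-107986420) are neighbours, whereas Gsta3 (chr1:21240565-21265575) and Gsta4 (chr9:78191966-78209349) of the alpha class lie on different chromosomes. Gstp1 (chr19:4035411-4037912) and Gsto1 (chr19:47854973-47864790) share a chromosome, as do Gstk1 (chr6:42245935-42250441) and Mgst1 (chr6:138140527-138156755). Mgst3 is at chr1:167371966-167393841 and Gstt1 at chr10:75783813-75798584. The probes' own sequences were not used here, so signal shared between near-identical family genes, above all within the mu class and between Gstp1 and Gstp2, cannot be told apart.

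Stretches before a transcription start of 4 members are shown because antioxidant response elements, bound by NRF2, and C/EBP sites, bound by the C/EBP factors of fat cell differentiation, are the best known control elements of this enzyme family and of this cell type. Each is the 150 bases before the transcription start in the RefSeq promoter table (GRCm38.p6), read 5′ to 3′ on the gene's strand. Capitals mark the antioxidant response element core TGACNNNGC in Gsta3 (chr1:21240435-21240584, plus strand), where it starts at -121, and in Mgst1 (chr6:138140377-138140526, plus strand), where it starts at -56 and reads on the opposite strand. In Gstm2 (chr3:107986421-107986570, minus strand) and Gstt1 (chr10:75797732-75797881, minus strand) capitals mark the C/EBP-type site TTGCNNAA, which starts at -42 and at -39. The table's start of Gstt1 (position 75797731) lies 853 bases inside the gene span given above, so that its whole stretch is within the annotated gene and not upstream of it. That of Gsta3 lies 20 bases inside.
Gsta3: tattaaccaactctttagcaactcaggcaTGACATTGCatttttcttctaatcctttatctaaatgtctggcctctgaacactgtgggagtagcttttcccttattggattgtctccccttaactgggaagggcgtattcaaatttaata
Mgst1: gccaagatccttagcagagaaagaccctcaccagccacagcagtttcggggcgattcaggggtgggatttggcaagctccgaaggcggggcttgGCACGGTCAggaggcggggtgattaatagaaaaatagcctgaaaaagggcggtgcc
Gstm2: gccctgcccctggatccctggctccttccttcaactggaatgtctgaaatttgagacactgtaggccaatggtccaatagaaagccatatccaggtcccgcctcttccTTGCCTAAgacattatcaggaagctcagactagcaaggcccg
Gstt1: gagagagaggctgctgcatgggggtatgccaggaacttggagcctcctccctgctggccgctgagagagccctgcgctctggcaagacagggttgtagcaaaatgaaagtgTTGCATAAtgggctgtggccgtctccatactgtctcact

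The table held 11 windows of 300 bases (250 before and 50 after a start) for 9 of the members, and each motif was searched on both strands. The antioxidant response element core was found in 2 of these 11 windows, those of Gsta3 and Mgst1, and in 12.4% of all 32851 windows. The C/EBP-type site was found in 4 windows, those of Gsta3, Gstm2, Gstt1 and Mgst1, and in 10.8% of all windows. The AP-1 site TGANTCA was found in the Gstp1 window alone, and in 7.81% of all windows. A match describes these letters and is not evidence of binding.

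All 10 members changed over the course by limma's moderated F test across the 8 days, as did 74.5% of all genes tested. With the arrays scaled to one median in place of quantile normalization, 9 of the 10 were called. They did not move together. Gsta3 went from not detected on day 0 to its higher levels from day 4 on, 5 members (Gsta4, Gstm1, Gstm2, Gstt1 and Gstk1) fell on day 2 and came back, Mgst1 and Mgst3 rose early, Gsto1 peaked on day 6, and Gstp1 moved least. Gsta3 has only a bound for its range of day means, since it was not detected on day 0: day 14 was at least 18.0-fold higher. Gstt1 ranged over 3.63 on the log2 scale, its lowest day, day 4, detected on 1 of 3 arrays, and was followed by Gstm2 (2.67), Gstm1 (2.45), Gsta4 (2.41) and Gstk1 (2.33). Mgst3 (1.88), Mgst1 (1.13), Gsto1 (0.70) and Gstp1 (0.66) spanned less. In RNA from a whole culture, fewer cells of a type and less RNA per cell cannot be told apart.

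**Figure D1:**
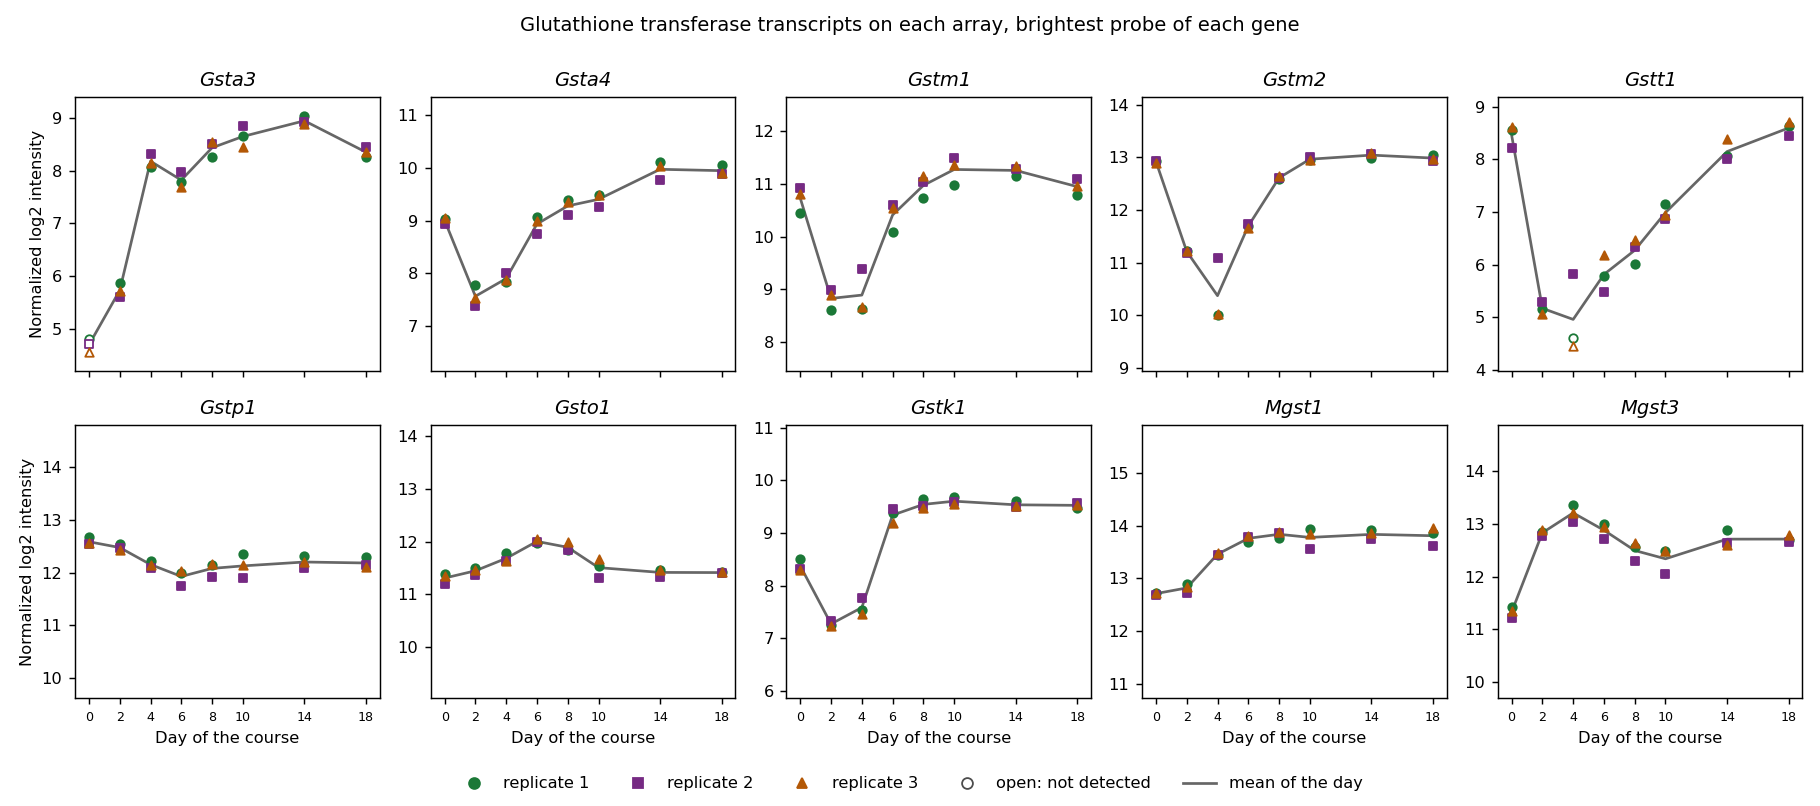
Normalized log2 intensity of each member's brightest probe on each of the 24 arrays against the day of the course. Symbols are the replicates, open symbols were not detected, the line joins the day means, and every panel spans the same height. Gsta3 climbs from undetected values on day 0 to a mean of 8.95 on day 14, and Gstt1 falls from 8.46 to 4.96 on day 4, when 1 of 3 arrays detected it, and returns to 8.60 on day 18.

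**Figure D2:**
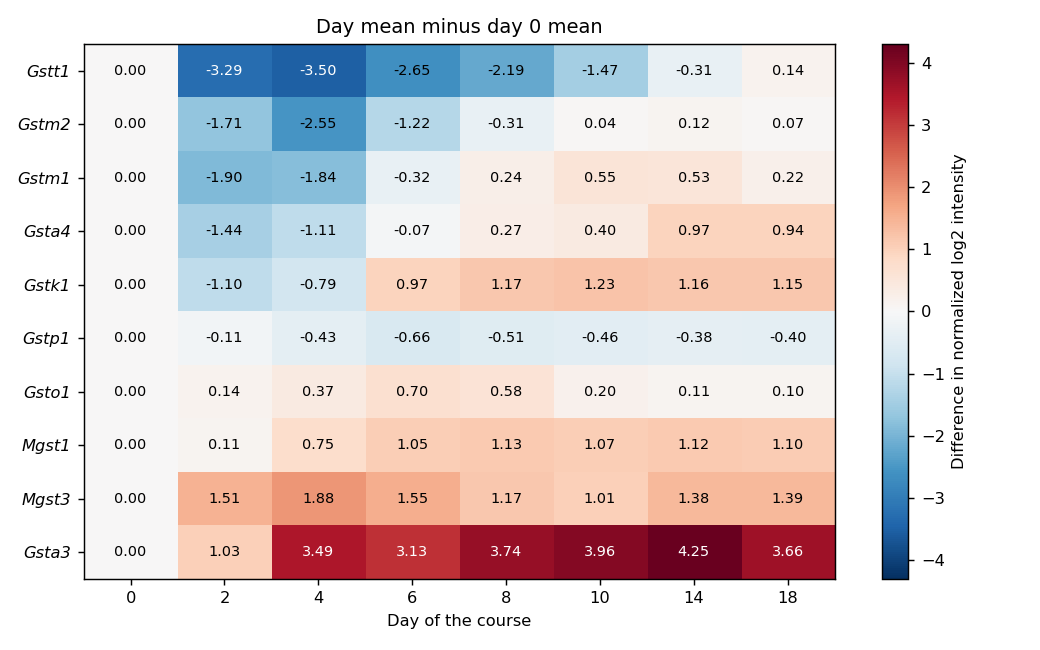
Difference of each day's mean from the day 0 mean (log2 scale, colour and printed value) for the 10 members by day. Gstt1, Gstm2, Gstm1, Gsta4 and Gstk1 are below day 0 on days 2 and 4, as is Gstp1 by less. The means of Gsta3, Mgst3, Mgst1 and Gsto1 are above day 0 on every later day. Day 0 values of Gsta3 were not detected, so its row is no measure of fold.

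From day 0 to day 2, 2 members rose (25% of all genes did) and 5 fell (26.5% of all genes). The members' median difference was -0.61 against 0.02 over all genes. From day 2 to day 4, 6 rose (18.7% of all genes) and 2 fell (22.7%), and from day 4 to day 6, 7 rose (15.3%) and 1 fell (14%). Without day 4 replicate 2, 4 rose and 2 fell in the first of these steps and 7 rose and 1 fell in the next. Without day 2 replicate 2 the rises from day 2 to day 4 numbered 3, without day 2 replicate 1 the falls numbered 1, and without day 6 replicate 3 the falls from day 4 to day 6 numbered 0. Without day 8 replicate 2, day 10 replicate 2 or day 14 replicate 1 the latter numbered 2. Their medians in these steps were 0.27 and 0.59, against -0.02 and -0.01 over all genes.

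Fewer members were called in each later step. From day 6 to day 8, 2 members rose (7.54% of all genes) and 1 fell (5.45%). From day 8 to day 10 none rose (2.36%) and 1 fell (1.59%) in limma, where 1 member was higher at an unadjusted p under 0.05. From day 10 to day 14, 2 rose (1.13%) and none fell (1.03%), with none lower at an unadjusted p under 0.05 either. From day 14 to day 18 none rose (0.45%), with 0 members higher at an unadjusted p under 0.05. In that step 1 fell (0.0314%), among 3 genes in all in this fit. Without day 4 replicate 2, 2 members rose from day 8 to day 10. Leaving out single arrays, named with each member's values, took the falls from day 6 to day 8, day 8 to day 10 and day 14 to day 18, and the rises from day 10 to day 14, to 0.

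Over the maturation phase, from day 6 to day 18, 5 members rose (18% of all genes) and 1 fell (18.5%). Between the ends of the course, day 18 against day 0, 5 rose (23.2%) and 1 fell (34%), with a median of 0.58 against -0.08 over all genes. Scaling the arrays to one median in place of quantile normalization moved that median over all genes to 0.05 and the share of rises among all calls from 40.6% to 51.1%. The 5 members called higher there were Gsta3, Gstk1, Gsta4, Mgst1 and Mgst3.

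Gsta3, an alpha-class enzyme that in humans also isomerises steroid intermediates, was the member that appeared with differentiation. On day 0 it read 4.81, 4.72 and 4.56 in replicates 1 to 3 and was not detected on any of these arrays. On day 2 it read 5.87, 5.61 and 5.72, and on day 4 it read 8.08, 8.31 and 8.16. All 3 arrays of each later day lay above all arrays of day 0, and those of day 4 lay above those of day 2.

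Set against the dimmest detected signal, day 2 was at least 1.93-fold and day 18 at least 11.9-fold above day 0 (adjusted p = 1.31e-07 and 3.05e-16). The rise from day 2 to day 4 was 2.45 ± 0.11 (log2, SE; adjusted p = 1.07e-12), a 5.48-fold change, and 2.39 ± 0.12 without day 4 replicate 2. After day 4 the level dipped to 7.79, 7.99 and 7.69 on day 6, a fall of 0.36 ± 0.11 (adjusted p = 0.0197) that did not pass without day 4 replicate 2 (-0.29 ± 0.12, adjusted p = 0.0893) or without day 6 replicate 1 (adjusted p = 0.0576) or 3 (adjusted p = 0.0995).

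It then rose by 0.61 ± 0.11 to 8.27, 8.50 and 8.54 on day 8 (adjusted p = 0.000802). It stood at 8.66, 8.85 and 8.45 on day 10 and was highest on day 14, at 9.04, 8.92 and 8.89. Day 18, at 8.26, 8.46 and 8.35, was lower than day 14 by 0.60 ± 0.11 (adjusted p = 0.0115). Gsta3 was 1 of 3 genes called lower in that step in this fit, where 46 were called and 93.5% of them were higher. With the replicate number fitted as a block 99 genes were called, 80.8% of them higher. The Gsta3 call was lost without day 14 replicate 1 (adjusted p = 0.0845) or day 18 replicate 1 (adjusted p = 0.0954). In the order of its levels, day 8 and day 18 differed by less than their spread, and both stood above day 6 without overlap. A second Gsta3 probe was detected on 2 of 24 arrays and failed the filter, so the course of Gsta3 rests on 1 probe.

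Gstt1, the theta-class enzyme that handles small halogenated molecules, fell furthest. Day 0 read 8.56, 8.22 and 8.61, and day 2 read 5.17, 5.30 and 5.06. The groups did not overlap, and the difference of -3.29 ± 0.25 (adjusted p = 7.66e-10) was a 9.77-fold fall. On day 4 it was detected only on replicate 2, at 5.83, while replicates 1 and 3 read 4.60 and 4.46.

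The step from day 2 to day 4 therefore rested on that array: it was -0.21 ± 0.25 (adjusted p = 0.555) with it. Without it neither remaining day 4 array detected Gstt1, and day 4 was at least 1.24-fold below day 2 (adjusted p = 0.00773). Recovery was slow. Day 6 read 5.79, 5.48 and 6.18, day 8 read 6.02, 6.33 and 6.48, and day 10 read 7.15, 6.87 and 6.96.
The rise from day 4 to day 6 was 0.85 ± 0.25 (adjusted p = 0.0133), from a day with 1 detected array of 3, and at least 1.94-fold (adjusted p = 1.69e-05) without day 4 replicate 2. It did not pass without day 4 replicate 1 (adjusted p = 0.080) or 3 (adjusted p = 0.101) or day 6 replicate 3 (adjusted p = 0.0825). From day 8 to day 10 the difference of 0.72 ± 0.25 did not pass (adjusted p = 0.131), and did without day 4 replicate 2 (adjusted p = 0.0117), which enters the shared estimate of spread.

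Gstt1 rose again from day 10 to day 14, by 1.16 ± 0.25 (adjusted p = 0.0145), to 8.06, 8.00 and 8.38. This call was lost without day 10 replicate 2 (adjusted p = 0.0653) or 3 (adjusted p = 0.0571) or day 14 replicate 3 (adjusted p = 0.093). Day 18 read 8.64, 8.45 and 8.71, which overlapped day 0, and differed from it by 0.14 ± 0.25 (95% interval -0.39 to 0.66). Over the maturation phase the rise was 2.78 ± 0.25 (adjusted p = 2.71e-08), 6.87-fold.

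Gstm2 and Gstm1, mu-class enzymes that conjugate a wide range of aromatic and lipid-derived electrophiles, followed the same kind of course with an earlier return. Gstm2 read 12.94, 12.93 and 12.89 on day 0, 11.23, 11.19 and 11.22 on day 2, and 10.01, 11.09 and 10.02 on day 4. The fall was 1.71 ± 0.17 in the first step (adjusted p = 4.31e-08). In the next it fell by 0.84 ± 0.17 (adjusted p = 0.000471), and by 1.20 ± 0.07 without day 4 replicate 2. Its arrays then read 11.69, 11.73 and 11.67 on day 6 and 12.58, 12.61 and 12.65 on day 8, rises of 1.32 ± 0.17 and 0.91 ± 0.17 (adjusted p = 4.97e-06 and 0.00102). The former was 1.68 ± 0.07 without day 4 replicate 2.

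On day 10 Gstm2 read 12.94, 13.01 and 12.94, a step of 0.35 ± 0.17 from day 8 that did not pass (adjusted p = 0.333) and passed without day 4 replicate 2 (adjusted p = 0.00124). Days 14 (12.98, 13.07 and 13.08) and 18 (13.04, 12.94 and 12.98) stayed at that height. Day 18 differed from day 0 by 0.07 ± 0.17 (95% interval -0.29 to 0.42), so the level at the end overlapped that at the start. All 3 Gstm2 probes gave the same calls in all 9 comparisons.

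Gstm1 read 10.45, 10.92 and 10.81 on day 0 and 8.61, 8.99 and 8.88 on day 2, a fall of 1.90 ± 0.19 (adjusted p = 4.99e-08). On day 4 it read 8.63, 9.38 and 8.66, a difference of 0.06 ± 0.19 that did not pass with replicate 2 or without it (-0.18 ± 0.18, adjusted p = 0.490). It rose by 1.52 ± 0.19 to 10.09, 10.60 and 10.54 on day 6 (adjusted p = 3.78e-06), a rise of 1.77 ± 0.18 without day 4 replicate 2. From day 6 to day 8 it gained 0.56 ± 0.19 (adjusted p = 0.0625), which passed with the replicate number as a block (0.56 ± 0.11, adjusted p = 0.000916), without day 4 replicate 2 (adjusted p = 0.0256) and without day 8 replicate 1 (adjusted p = 0.0458).

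Its highest mean was on day 10 (10.98, 11.48 and 11.36). From day 6 to day 18 it rose by 0.54 ± 0.19 (adjusted p = 0.0346), a call lost without day 6 replicate 1 (adjusted p = 0.185) or day 18 replicate 2 (adjusted p = 0.122) or 3 (adjusted p = 0.0778). Day 18 (10.79, 11.10 and 10.96) overlapped day 0, with a difference of 0.22 ± 0.19 (95% interval -0.18 to 0.62). A second, dim Gstm1 probe was detected on 17 of 24 arrays but on only 1 of 3 on day 0 and 1 of 3 on day 2, so that it could not show a fall. With each probe tested on its own, this dim probe was called higher on day 18 than on day 0 (0.43 ± 0.18, adjusted p = 0.0468), unlike the brightest.

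Gsta4, the alpha-class enzyme with a strong preference for 4-hydroxynonenal and related lipid aldehydes, fell first and then ended above its start. It read 9.03, 8.93 and 9.06 on day 0 and 7.78, 7.38 and 7.52 on day 2, without overlap, a fall of 1.44 ± 0.12 (adjusted p = 1.89e-09). On day 4 it read 7.83, 8.00 and 7.86, 0.34 ± 0.12 above day 2 (adjusted p = 0.0263). That small rise was lost without day 2 replicate 2 (adjusted p = 0.144) or 3 (adjusted p = 0.0742) or day 4 replicate 2 (0.29 ± 0.13, adjusted p = 0.0972). It then rose by 1.04 ± 0.12 to 9.06, 8.75 and 8.99 on day 6 (adjusted p = 8.33e-07; 1.09 ± 0.13 without day 4 replicate 2), which overlapped day 0.

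Maturation carried Gsta4 further up. Day 8 read 9.38, 9.10 and 9.35, a step of 0.34 ± 0.12 (adjusted p = 0.0596) that passed with the replicate block (0.34 ± 0.09, adjusted p = 0.0068) and without day 2 replicate 1 (adjusted p = 0.0426), day 8 replicate 2 (adjusted p = 0.0319) or day 14 replicate 2 (adjusted p = 0.0483). From day 10 (9.47, 9.25 and 9.48) to day 14 (10.11, 9.77 and 10.04) it rose by 0.57 ± 0.12 (adjusted p = 0.00941), a call lost without day 10 replicate 2 (adjusted p = 0.0609) or day 14 replicate 1 (adjusted p = 0.0612) or 3 (adjusted p = 0.0586). Day 18 read 10.05, 9.89 and 9.90, all above every day 0 array, and was higher by 0.94 ± 0.12, 1.92-fold (adjusted p = 6.13e-07).

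Gstk1, the kappa enzyme of mitochondria and peroxisomes that is also known as DsbA-L and as a partner in adiponectin assembly, made the largest rise between neighbouring days among the returning members. It read 8.50, 8.33 and 8.30 on day 0, 7.25, 7.34 and 7.24 on day 2, and 7.53, 7.78 and 7.46 on day 4. Day 6 read 9.39, 9.46 and 9.18, above every earlier array. The first step was -1.10 ± 0.09 (adjusted p = 2.49e-09). The step from day 4 to day 6 was 1.75 ± 0.09 (adjusted p = 2.32e-11), 3.38-fold, and 1.85 ± 0.09 without day 4 replicate 2, while the rise from day 2 to day 4 of 0.31 ± 0.09 (adjusted p = 0.00894) was lost without day 4 replicate 2 (0.22 ± 0.09, adjusted p = 0.0709).

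From day 8 on the Gstk1 means of days 8, 10, 14 and 18 lay between 9.53 and 9.61, within their spread. Day 18 (9.48, 9.57 and 9.53) was above day 0 by 1.15 ± 0.09, 2.22-fold (adjusted p = 8.41e-10). In the same arrays Adipoq, which encodes adiponectin, was not detected on day 0 and was at least 634-fold higher on day 18 (adjusted p = 1.37e-22). Of 5 genes tested from a list on adiponectin assembly, whose median difference was -0.04 (all genes: 23.2% higher, 34% lower, median -0.08), Adipoq and Ero1b (0.34 ± 0.13, adjusted p = 0.0355, detected on 2 of 3 day 0 arrays) were higher on day 18 than on day 0, and the disulfide isomerase P4hb was lower (-0.63 ± 0.09, adjusted p = 6.35e-06).

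Markers of the starting cells shared some steps with the 5 members that fell and returned, and not others. These 5 members were grouped by that course itself, so their shared fall on day 2 and their return follow from the grouping. Their counts beside those of the markers are a description and no test of a difference. Of 9 preadipocyte and fibroblast markers tested, 8 fell from day 0 to day 2 (26.5% of all genes), as all 5 members did. From day 2 to day 4, 8 markers fell (22.7% of all genes), while Gstm2 fell and Gsta4 and Gstk1 rose. Without day 4 replicate 2 neither rise passed (adjusted p = 0.0972 for Gsta4 and 0.0709 for Gstk1). Gstt1 (adjusted p = 0.00773) then fell as well as Gstm2. From day 4 to day 6, 2 markers rose (15.3%), while all 5 members did. Over the maturation phase 8 rose (18%), as did the 5 members except Gstk1. On day 18, 8 markers were lower than on day 0 (34%), and none of the 5 members was. The markers' summed linear intensity was 46480 to 48470 on day 0, 17520 to 18810 on day 2, 6227 to 7273 on day 4, 7252 to 8127 on day 6 and 14740 to 17140 on day 18, and all 9 were detected on every array. Dlk1, the preadipocyte protein lost on differentiation, had a mean of 13.87 at the start, 10.81 on day 4 and 12.17 at the end.
Of the 8 macrophage markers listed, 2 were tested, Cd14 and Lyz2, and both fell on day 2 and rose from day 6 to day 18. Their summed intensity was 135.6 to 151.2 on day 0, 49.5 to 54.2 on day 4 and 155 to 158.9 on day 18, while Adgre1, Ptprc and Itgam were not detected. The part of either marker group in the course of the transferases was not tested.

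The membrane-bound enzymes, which sit in intracellular membranes and can reduce lipid hydroperoxides, rose during induction. Mgst3 read 11.43, 11.21 and 11.34 on day 0, 12.84, 12.77 and 12.88 on day 2, and 13.37, 13.04 and 13.21 on day 4. The groups did not overlap. The first step was 1.51 ± 0.12 (adjusted p = 2.63e-09), 2.84-fold, in the same interval in which Gstt1, Gstm1, Gstm2, Gsta4 and Gstk1 fell. The second was 0.38 ± 0.12 (adjusted p = 0.0198; 0.46 ± 0.14 without day 4 replicate 2) and was lost without day 2 replicate 2 (adjusted p = 0.0645) or day 4 replicate 1 (adjusted p = 0.0977).

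After its day 4 peak Mgst3 declined to a mean of 12.88 ± 0.15 (SD, n = 3) on day 6, then to 12.56, 12.30 and 12.63 on day 8, and 12.48, 12.05 and 12.48 on day 10. From day 4 to day 6 the difference of -0.33 ± 0.12 did not pass (adjusted p = 0.0544). It passed with the replicate block (-0.33 ± 0.08, adjusted p = 0.00365) and without any one of 5 arrays (adjusted p from 0.0266 to 0.0489): day 4 replicate 2, day 6 replicate 1, day 8 replicate 2, day 10 replicate 2 or day 14 replicate 1. Without the first of these it was -0.41 ± 0.14.
The fall of 0.39 ± 0.12 from day 6 to day 8 was called at an adjusted p of 0.0472, and with the replicate block at 0.00234 (SE 0.08). Of the 24 fits that left out an array, 16 lost the call (adjusted p from 0.0506 to 0.21). Those 16 left out any array of days 0, 2 or 18, day 4 replicate 3, day 6 replicate 1 or 3, day 8 replicate 1 or 2, or day 14 replicate 2 or 3.

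The rise of 0.37 ± 0.12 from day 10 to day 14 (12.89, 12.64 and 12.60) did not pass (adjusted p = 0.153) and passed with the block (0.37 ± 0.08, adjusted p = 0.0118). Day 18 read 12.69, 12.65 and 12.79, above day 0 by 1.39 ± 0.12, 2.61-fold (adjusted p = 6.51e-09). The second Mgst3 probe gave 1.52 ± 0.16 for day 2 and 1.56 ± 0.16 for day 18 against day 0.

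Mgst1 read 12.72, 12.68 and 12.73 on day 0 and did not differ detectably on day 2 (12.90, 12.72 and 12.83; 0.11 ± 0.09, adjusted p = 0.373). It rose by 0.64 ± 0.09 to 13.45, 13.45 and 13.48 on day 4 (adjusted p = 1.21e-05) and by 0.30 ± 0.09 to 13.70, 13.78 and 13.80 on day 6 (adjusted p = 0.0193). Without day 4 replicate 2 these were 0.65 ± 0.11 and 0.295 ± 0.11. The later of these calls was lost without day 4 replicate 1 (adjusted p = 0.0526) or day 6 replicate 2 (adjusted p = 0.056) or 3 (adjusted p = 0.0646), and the second Mgst1 probe gave 0.04 ± 0.22 there. From day 6 to day 18 the day means stayed between 13.76 and 13.84, with overlapping arrays. Day 18 (13.85, 13.62 and 13.96) was above day 0 by 1.10 ± 0.09, 2.14-fold (adjusted p = 2.9e-09), and by 1.07 ± 0.22 on the second probe.

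Gsto1, the omega enzyme that acts as a thioltransferase and dehydroascorbate reductase, was raised for a limited time around day 6. It read 11.38, 11.20 and 11.35 on day 0, 11.78, 11.64 and 11.64 on day 4, and 11.98, 11.99 and 12.06 on day 6. The steps from day 2 (11.51, 11.37 and 11.47) to day 4 and from day 4 to day 6 were 0.24 ± 0.09 and 0.32 ± 0.09 (adjusted p = 0.0341 and 0.00736), and 0.26 ± 0.10 and 0.30 ± 0.10 without day 4 replicate 2. The first was lost without day 2 replicate 2 (adjusted p = 0.131) or 3 (adjusted p = 0.0595) or day 4 replicate 1 (adjusted p = 0.137).

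After day 8 (11.85, 11.84 and 11.99) Gsto1 came down again, to 11.54, 11.31 and 11.68 on day 10, by 0.39 ± 0.09 (adjusted p = 0.0145). That call was lost without day 8 replicate 3 (adjusted p = 0.0698) or day 10 replicate 2 (adjusted p = 0.0876). Day 14 read 11.47, 11.33 and 11.46. Day 18 read 11.42, 11.40 and 11.42, lower than day 6 by 0.59 ± 0.09 (adjusted p = 1.56e-05) and 0.10 ± 0.09 from day 0 (95% interval -0.08 to 0.29). The last difference depended on the scaling: with arrays scaled to one median it was 0.37 (adjusted p = 0.000965), and that of day 2 from day 0 was 0.29 (adjusted p = 0.00705). It was the only member called lower over the maturation phase. Of the 7 hepatocyte markers, 2 were tested, and Cyp2e1 was likewise highest on day 6 (a mean of 7.36, and not detected on day 0), while Alb, Ttr, Serpina1a, Fgb and Tat were not detected; the part of this in the course of Gsto1 was not tested.

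Gstp1, the pi-class enzyme, abundant in many tissues and also a binding partner of the kinase JNK, had a bright and nearly level signal. It read 12.67, 12.53 and 12.55 on day 0, 12.54, 12.46 and 12.42 on day 2, 12.22, 12.09 and 12.15 on day 4, and 11.99, 11.75 and 12.04 on day 6. The fall from day 2 to day 4 was 0.32 ± 0.11 (adjusted p = 0.0203) and was lost without day 2 replicate 1 (adjusted p = 0.071) or day 4 replicate 2 (-0.29 ± 0.12, adjusted p = 0.0684). The next difference, -0.23 ± 0.11, did not pass (adjusted p = 0.128; -0.26 ± 0.12 without day 4 replicate 2), and passed with the replicate block (-0.23 ± 0.07, adjusted p = 0.0196).

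On day 18 Gstp1 read 12.29, 12.14 and 12.11, below every day 0 array, a fall of 0.40 ± 0.11 from day 0 (adjusted p = 0.00293). This call depended on the probe and the scaling: it was -0.15 (adjusted p = 0.259) with median scaling, -0.05 (adjusted p = 0.788) for the mean of the 3 Gstp1 probes, and -0.03 ± 0.09 on the second probe alone. From day 6 to day 18 the brightest probe gained 0.26 ± 0.11 (adjusted p = 0.0706), which passed with the block (0.26 ± 0.07, adjusted p = 0.00781) and without day 10 replicate 1 (adjusted p = 0.0466) or 2 (adjusted p = 0.041). The second probe gained 0.50 ± 0.09 (adjusted p = 0.000267). The third probe, near the detection limit, varied more than either, with an SE of 0.43.

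**Figure D3:**
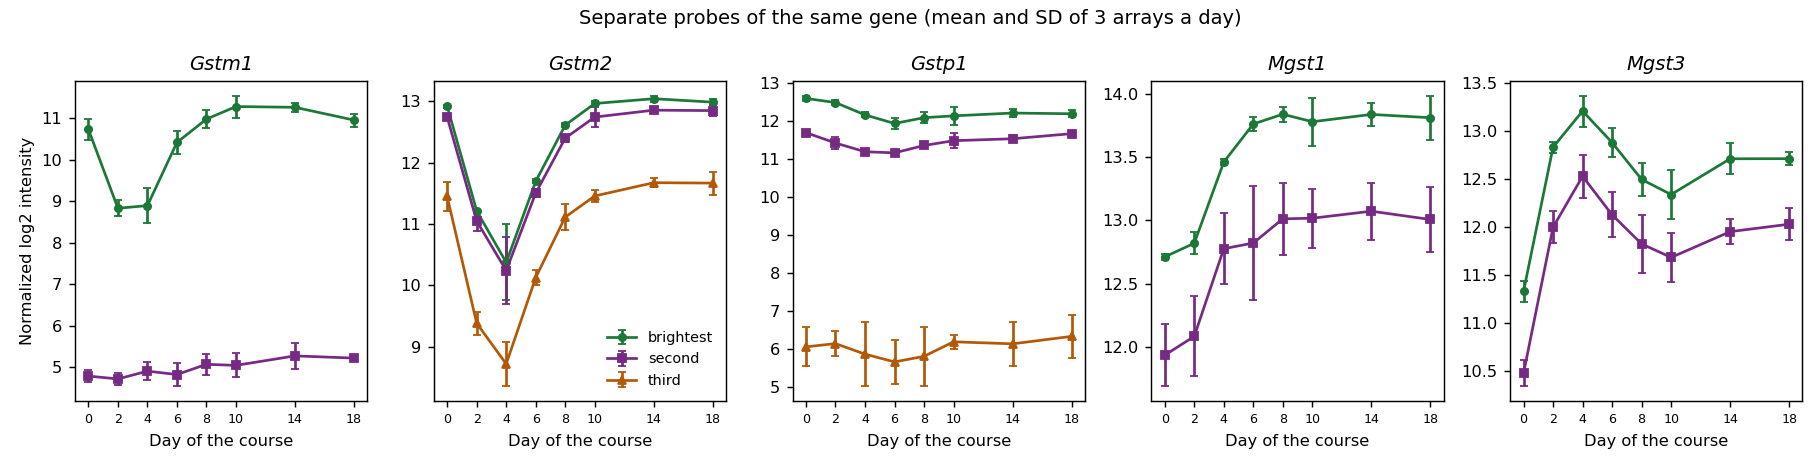
Day means and SDs (3 arrays each) of the separate probes of the 5 members that had several probes past the filter, as normalized log2 intensity by day. Levels of different probes are not comparable, only their shapes: the Gstm2, Mgst1 and Mgst3 probes run in parallel, the dim second Gstm1 probe lies near the detection limit and could show no dip, and the Gstp1 probes differ at the end of the course.

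Likeness between courses was measured as Pearson's r over the 8 day means, as a description over points that share their arrays. Among the members, Gsta3 and Mgst1 were most alike (0.959), followed by Gsta4 and Gstm1 (0.945), Gstm1 and Gstm2 (0.932) and Gstm1 and Gstk1 (0.926). Gstp1 and Mgst1 were the most opposed (-0.89), each read on its brightest probe. The second Gstp1 probe, also detected on all 24 arrays, had another course. Its day 18 differed from day 0 by -0.03 ± 0.09, against -0.40 ± 0.11 on the brightest. The likeness of that second probe to Mgst1 was not measured. Over the 3906 genes with a called change and a range of at least 1 (log2), those nearest to Gsta3 were Rnf141 (0.992) and Mcee (0.991), and those nearest to Gstt1 were Ube2l6 (0.994) and Nol3 (0.99). Gstm2 was nearest to Sparc, a matrix protein of fibroblasts (0.997), and to the caveolar protein gene Cavin3 (0.997), and Gstm1 to Mylk (0.994) and Skap2 (0.99).

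Of 19 other genes of the glutathione transferase families tested, 8 were higher and 2 lower on day 18 than on day 0, with a median of 0.31 (all genes: 23.2% higher, 34% lower, median -0.08). The rises were led by Ltc4s, the MAPEG enzyme that makes leukotriene C4 (5.95 to 11.06, 5.12 ± 0.13), and by Mgst2, a MAPEG enzyme with the same activity (6.04 to 9.70, 3.66 ± 0.19). Gstz1, which isomerises maleylacetoacetate in tyrosine breakdown, rose by 2.82 ± 0.11, from 9.18 to a peak of 13.10 on day 6 and 12.00 on day 18. Gstt4, not detected on day 0, was at least 5.29-fold higher. Ptges2 (1.48 ± 0.15), Gstt3 (1.07 ± 0.30), Gstm6 (0.72 ± 0.20) and Gsto2 (0.31 ± 0.12) rose by less.

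The 2 that fell were Alox5ap, the MAPEG protein that hands arachidonate to 5-lipoxygenase, at least 2.77-fold lower and not detected on day 18, and Ptges, a prostaglandin E synthase (-0.94 ± 0.10). The remaining family genes did not pass between day 18 and day 0: Gstm5 (0.06 ± 0.16), Gstt2 (0.33 ± 0.17), Gstp3 (0.41 ± 0.29), Gstp2 (-0.32 ± 0.16) and Gstcd (-0.40 ± 0.22), the last 2 detected on 1 of 3 day 18 arrays. Gsta1, Gsta2 and Hpgds were not detected on either day, and Gstm4 was detected on 1 array of day 18 and none of day 0. From day 0 to day 2, 6 of the 19 family genes fell (26.5% of all genes) and 3 rose (25%). Gstm5 and Gstt3 fell by 0.79 ± 0.16 and 1.36 ± 0.30 (adjusted p = 0.000334 and 0.000588), and Gsto2 by 1.36 ± 0.12 (adjusted p = 3.67e-09). Gstm6 and Alox5ap, each detected on 1 of 3 day 2 arrays, and Gstp2, not detected on day 2, fell too. Ltc4s, Ptges2 and Ptges rose. Gsta1 and Gsta2 were detected on all 3 arrays of day 8 and on none up to day 6.

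**Figure D4:**
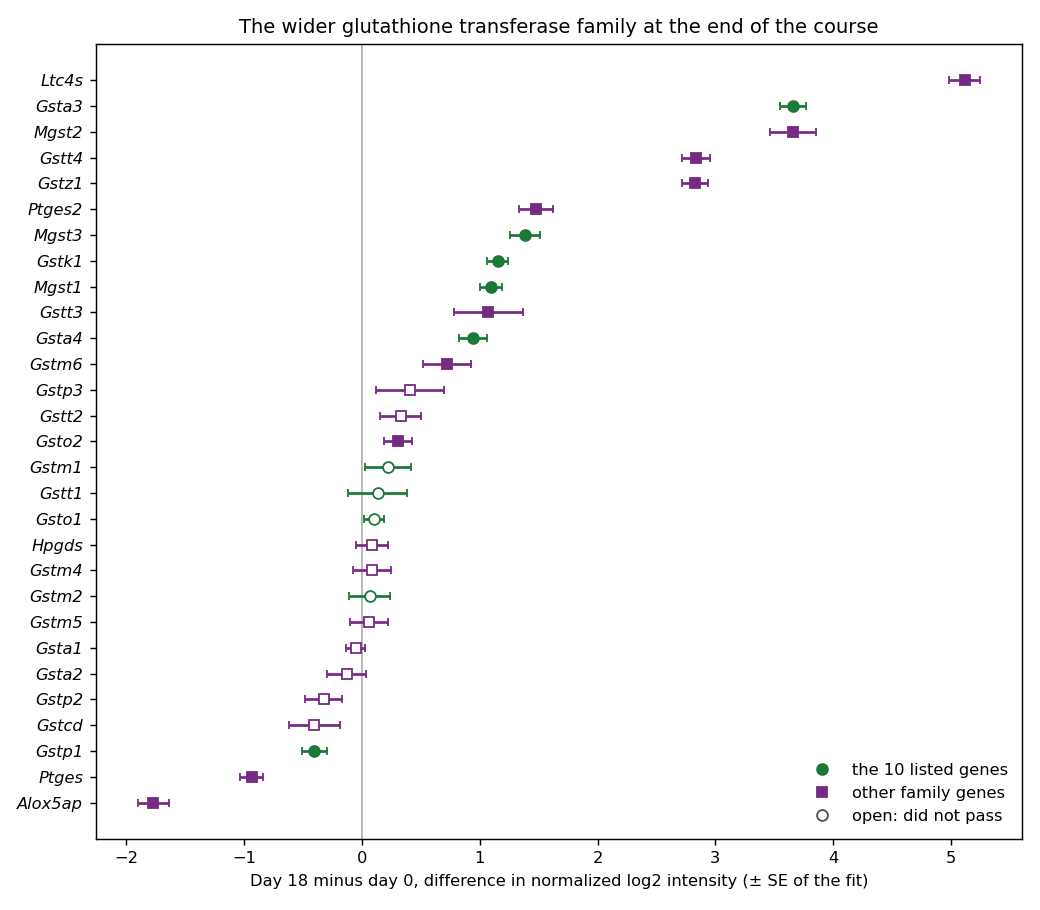
Difference between day 18 and day 0 in normalized log2 intensity, with the SE of the fit, for the 10 members (circles) and 19 other tested family genes (squares); open symbols did not pass at an adjusted p of 0.05. Ltc4s, Gsta3 and Mgst2 are at the upper end and Alox5ap and Ptges at the lower; Gsta3, Gstt4, Gstm4 and Alox5ap were not detected on one of the days and Gsta1, Gsta2 and Hpgds on either, so their points are fitted values and no measure of fold.

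Of 16 genes of glutathione synthesis and turnover tested, 8 were higher and 2 lower on day 18 than on day 0, with a median of 0.59 (all genes: 23.2% higher, 34% lower, median -0.08). The largest rises were those of Hagh, a glyoxalase (2.17 ± 0.14), Chac1, which breaks glutathione down (2.06 ± 0.09), and Gclm, the modifier subunit of the rate-limiting enzyme of synthesis (1.45 ± 0.14). Gclc, the catalytic subunit of that enzyme, was not detected on either day. Ggt7 (-1.22 ± 0.17) and Glrx (-0.20 ± 0.08) fell. NADPH keeps glutathione reduced. Of 7 genes tested from a list on NADPH supply and the pathways that feed it, 5 rose (23.2% of all genes) and none fell (34%). None fell at an unadjusted p under 0.05 either, and the median was 0.83. Taldo1 (2.77 ± 0.10), Me1 (2.70 ± 0.36) and Tkt (1.32 ± 0.12) rose most.

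Among 19 regulators and classical targets of NRF2 tested, 10 rose and 2 fell from day 0 to day 18, with a median of 0.30 (all genes: 23.2% higher, 34% lower, median -0.08). Nfe2l2, which encodes NRF2 itself, went from 7.68 to 7.36 (-0.32 ± 0.27, adjusted p = 0.333), and Keap1, its inhibitor, rose by 0.56 ± 0.08 (adjusted p = 6.09e-06). Gclm (1.45 ± 0.14), Osgin1 (1.23 ± 0.14) and Cbr3 (1.01 ± 0.08) rose most. Nqo1, a classical target, fell by 1.46 ± 0.13 (adjusted p = 3.78e-09), and Ephx1, an epoxide hydrolase, fell by 0.37 ± 0.13 over the whole course and by 2.01 ± 0.13 in its first 2 days.

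Over all genes, 23.2% were higher and 34% lower in the same comparison. Of 9 peroxidases tested (median 0.14), 4 rose, led by Cat (2.52 ± 0.09), Gpx4 (1.47 ± 0.17) and Prdx3 (1.12 ± 0.13), and 3 fell, Prdx4 (-1.69 ± 0.06), Gpx7 (-1.39 ± 0.14) and Prdx2 (-0.32 ± 0.10), a share of falls near that over all genes. Of 9 other enzymes that clear lipid aldehydes (median 0.02), 4 rose and 2 fell. Aldh1a7 was not detected on day 0 and was at least 59.2-fold higher on day 18, and Aldh2 (1.12 ± 0.08) and Cbr1 (1.06 ± 0.10) rose, while Aldh3a1 (-2.12 ± 0.12) and Aldh3a2 (-1.003 ± 0.08) fell. Of 4 transporters that export glutathione conjugates tested (median -0.38), none rose, at an unadjusted p under 0.05 as well, and 2 fell: Abcc3, at least 2.67-fold lower and not detected on day 18, and Abcc5 (-0.82 ± 0.11).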

How the data were processed

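Mean bead intensities per probe with their detection p-values were deposited without normalization, per the file headers and the values; a second deposited table held intensities already background-subtracted and normalized by the authors, whose method the labels do not state. GenomeStudio 2011.1 is named in the submitters' processing notes without a role. From the first table, intensities were background-corrected by normexp from the detection p, quantile-normalized and log2-transformed with limma's neqc (limma 3.58.1, R 4.3.3, offset 16). Probes with detection p under 0.05 on at least 3 arrays were kept, and each gene was read by its probe with the highest mean; 23978 probes carried 1 symbol and 1719 none. A single limma fit, with 1 coefficient for each day, over all 24 arrays (16 residual degrees of freedom) gave the F test and 9 comparisons, two-sided, with Benjamini-Hochberg adjustment over 9558 genes and a threshold of 0.05; on simulated data it was tested before use. All changes are log2 differences ± SE. "At least" folds set the undetected side at the higher of each array's dimmest detected signal and its own value.

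The members, gene lists and tests were chosen with earlier results of these data known. Named were all members, all tested genes of the wider family, Nfe2l2, Keap1, Adipoq and Dlk1, up to 3 genes per list that rose and 3 that fell most between day 0 and day 18, and the 2 genes most like each of the 4 members of widest fitted range. Genes of the marker lists and of the detection checks are named for the state of the cells. Same-numbered replicates deviated together (all 84 pairs, r from 0.251 to 0.762, and 24 of 24 arrays correlated best with their own number), so the replicate number was fitted as a block as an alternative. The others were no background correction, the authors' normalized table, median scaling, other detection filters, other probe rules and leaving out each array.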

Additional observations from a re-analysis of the deposited data

How the results depend on the processing

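In each alternative run except median scaling, 10 members were called over the course and 2 rose from day 0 to day 2; median scaling gave 9 and 3. In all of them 5 members fell on day 2. On day 18, 5 were higher than on day 0 in each alternative except median scaling, which added Gsto1 and gave 6. Other counts of members that moved included the following. With the block 3 rose from day 10 to day 14 and 6 from day 6 to day 18. With the mean of probes Gstp1 was called higher from day 6 to day 18 (0.48 ± 0.14, adjusted p = 0.0121). Members lower from day 2 to day 4 numbered 1 with median scaling and with the mean of probes. Members lower from day 4 to day 6 numbered 2 without background correction, with median scaling, with detection p under 0.01 and with the mean of probes, and 3 with the replicate block. From day 6 to day 8, 4 rose without background correction and with the block. None fell there in the authors' normalized table, without a detection filter, with each probe tested alone or with the mean of probes. None was lower on day 18 than on day 0 with median scaling or the mean of probes.

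Leaving out each array in turn gave 3 to 6 rises and 1 to 2 falls from day 2 to day 4, 5 to 7 and 0 to 2 in the next step, 2 to 3 and 0 to 1 from day 6 to day 8, 0 to 2 and 0 to 1 from day 8 to day 10, 0 to 2 rises from day 10 to day 14, 0 to 1 falls from day 14 to day 18, and 4 to 6 rises from day 6 to day 18. The block raised the genes called among all tested from 1242 to 2231 from day 6 to day 8, from 378 to 1016 in the next step, from 206 to 573 from day 10 to day 14 and from 46 to 99 in the last. Beyond the calls given in the results it changed no other call of a member. Some late calls that were lost without single arrays stayed with the block over all arrays. These were Gsto1 from day 8 to day 10 (adjusted p = 0.00173), Gsta4 and Gstt1 from day 10 to day 14 (0.000431 and 0.00773) and Gsta3 from day 14 to day 18 (0.00356). Single calls also lost were Gsta4 from day 2 to day 4 (adjusted p = 0.0509) and Gstt1 from day 4 to day 6 (adjusted p = 0.0703) without background correction, Mgst1 from day 4 to day 6 with median scaling (adjusted p = 0.14) and with the mean of probes (adjusted p = 0.372), and Gstm1 from day 6 to day 18 without a detection filter (adjusted p = 0.0576). No value of a member's called change reversed its sign. The cause of these shifts was not tested. Values near 4.75 to 4.90 cannot be ordered, which limits Gsta3 on day 0 and Gstt1 on day 4.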
